A study of Mus musculus with 9 samples.

Results

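Each T cell carries a receptor made of an alpha and a beta chain, and the start of each chain is encoded by a V segment that the developing cell chose from a large cluster of them. The members described here are those V segments: every row of the deposited count table named Trav (alpha chain) or Trbv (beta chain) followed by a digit, with at least 10 counts summed over the 9 libraries. This gave 93 members, 69 Trav and 24 Trbv, out of 48663 rows. The rule used the summed count and the symbol only, so it did not use any comparison between groups.

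The 9 libraries, in 3 groups of 3, were made from spleen cells of mice at day 30 of an infection with lymphocytic choriomeningitis virus (LCMV, the Armstrong strain), when memory cells have formed. CD4 control cells were GP66:I-Ab+, that is, stained by a tetramer of an MHC class II molecule holding a peptide of the viral glycoprotein, and the mice were Ox40-Cre-. CD4 ThpokAD cells were sorted with the same GP66:I-Ab tetramer from Ox40-Cre+ Thpokfl/fl mice, in which the floxed gene of the helper lineage factor Thpok can be deleted where the Ox40 gene is active, which is after T cell activation. CD8 control cells were GP33:H-2Db+, stained by an MHC class I tetramer holding another glycoprotein peptide, and came from Ox40-Cre- mice. Cre was present in the ThpokAD mice only, and CD4 or CD8 lineage, peptide, MHC class and sort change together between the GP66 and GP33 groups, so they cannot be told apart. The labels do not say that replicates were separate animals, so p-values cover only the spread among these libraries, and part of it may be technical.

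V segment choice is fixed before a cell leaves the thymus, first for beta and then for alpha, and the chosen segment stays in all of the cell's progeny. Segments of both chains contribute to contact with the MHC molecule and peptide, and a population selected by a single peptide and MHC molecule is often skewed in its V usage. In sorted bulk cells, a higher V count can mean more cells with that segment or more receptor RNA per cell, and these cannot be told apart here. Mice of several laboratory strains carry near-repeated stretches of the Trav cluster, which is why many Trav segments have a copy with d or n in its name.

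Library totals were 16664474 to 38981516 counts. The members held 199676 counts, with 4384 to 12350 Trav and 10421 to 24730 Trbv counts per library, and the other 70 V rows of the table held 58 counts in all. A list of gamma-delta T cell genes summed to at most 12 CPM (counts scaled to a common library size, with TMM factors) in any library. A list for invariant NKT and MAIT cells summed to at most 15.2 CPM, but it holds Trav1, itself a member, and Trav11 copies whose usage cannot be read; its other gene, Zbtb16, was at 3.54 CPM in CD4 ThpokAD replicate 1, 0.0969 CPM in CD8 control replicate 2 and 0 in the other libraries. The recombinase genes Rag1 and Rag2, active in developing lymphocytes, had no counts. B cell markers summed to 254 to 1199 CPM with overlapping ranges in the 3 groups, and myeloid markers to 307 to 373 CPM in CD4 ThpokAD against 142 to 181 CPM in CD4 control and 111 to 288 CPM in CD8 control; their part in the V values was not tested. Zbtb7b, the gene of Thpok, was at 38.5, 47.5 and 48.9 CPM in CD4 control, 0.698, 0.875 and 0.849 CPM in CD4 ThpokAD and 24, 19.4 and 18.8 CPM in CD8 control. Cd4 was at 1295 to 1409 CPM in CD4 control, 551 to 679 CPM in CD4 ThpokAD and 0.222 to 2.26 CPM in CD8 control, and the summed level of Cd8a and Cd8b1 was 17.7 to 27.9, 90.7 to 123 and 2827 to 3827 CPM.

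All 163 V rows of the table were found in the GENCODE M21 annotation (GRCm38, which is mm10). The 128 Trav rows lie on chromosome 14 between 52427928 and 53977678, all on the plus strand. The 35 Trbv rows lie on chromosome 6 between 40891229 and 41558452, and Trbv31, at the far end of the cluster beyond the constant genes, is the only row on the minus strand. Of the members, 85 are annotated as genes and 8 as pseudogenes. Counts of alpha segments depend on how reads from near-identical copies were treated: the 34 Trav genes in which every 126-base window, the length of a read, also occurs in another V transcript held 15 counts in all and no more than 4 each. Among them are Trav14d-1, Trav14d-2, Trav14n-1 and Trav14n-2, and the segment of the invariant NKT cell receptor, Trav11, had 99.5% of its windows in its copy Trav11d, so no usage can be read from the low counts of these copies. Only 7 members shared at least 50% of their windows, and no Trbv row shared any. At the edge of the membership rule, Trbv12-3 entered with 10 counts, while Trav22, Trbv10 and Trbv22 were left out with 7 each.

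The alpha chain results turned on the Trav14 family, known by its older name as V alpha 2. A stretch of 140 bases from within the V exon is shown for its 5 members, because the segments that dominated the GP66 sorts and the segment that was higher in the GP33 sort differ at few bases. Capitals mark the 21 positions at which the 5 differ; sequences are from the GENCODE M21 transcripts, plus strand of chromosome 14.
Trav14d-3-dv8, chr14:53078780-53078919: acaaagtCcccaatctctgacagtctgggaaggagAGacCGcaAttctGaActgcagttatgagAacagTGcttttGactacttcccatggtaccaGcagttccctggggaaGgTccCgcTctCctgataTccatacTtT
Trav14n-3, chr14:53370310-53370449: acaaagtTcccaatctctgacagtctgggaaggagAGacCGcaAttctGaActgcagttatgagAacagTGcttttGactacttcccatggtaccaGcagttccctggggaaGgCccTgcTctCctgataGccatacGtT
Trav14-3, chr14:53763429-53763568: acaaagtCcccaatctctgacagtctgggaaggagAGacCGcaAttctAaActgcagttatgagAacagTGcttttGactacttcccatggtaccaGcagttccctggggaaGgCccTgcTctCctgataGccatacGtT
Trav14-2, chr14:53640960-53641099: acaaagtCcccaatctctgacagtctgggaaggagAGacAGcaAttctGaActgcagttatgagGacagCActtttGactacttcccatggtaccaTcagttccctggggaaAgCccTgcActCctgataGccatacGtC
Trav14-1, chr14:53554293-53554432: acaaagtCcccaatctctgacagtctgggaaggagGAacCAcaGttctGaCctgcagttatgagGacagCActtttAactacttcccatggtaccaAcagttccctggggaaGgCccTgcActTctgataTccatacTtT
Over the last 280 bases of the V exon, Trav14-3 and Trav14n-3 were 98.2% identical with 5 differences, Trav14d-3-dv8 differed from them at 8 and 9 bases, and Trav14-1 differed from each of the others at 18 bases. Trav14-3 and Trav14n-3 had 10.4% and 11.4% of their 126-base windows in common with another V transcript, so counts of this pair are less certain than those of Trav14d-3-dv8, Trav14-1 and Trav14-2, which shared none.

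Trav14 members made up most alpha counts in the GP66 libraries except CD4 ThpokAD replicate 1, and a smaller share in the GP33 sort. Any use of copies whose usage cannot be read, such as Trav14d-1, is not in these shares. The 5 members together held 77.7%, 71.3% and 74.0% of Trav counts in the CD4 control libraries, 42.9%, 64.4% and 66.8% in CD4 ThpokAD and 32.5%, 17% and 12% in CD8 control. Every GP66 library was thus above every GP33 library, and the 3 CD4 ThpokAD libraries lay below the 3 CD4 control libraries. When rows were summed by family and the whole table was refitted with edgeR's quasi-likelihood test and Benjamini-Hochberg adjustment over 15697 rows, a fit added after the data had been seen, Trav14 was lower in the GP33 sort than in the GP66 sort by a log2 fold change of -2.79 ± 0.21 (SE, adjusted p = 7.7e-05). The change of the family from CD4 control to CD4 ThpokAD was -0.79 ± 0.21 on the log2 scale and did not pass the threshold (adjusted p = 0.0968), whereas DESeq2's Wald test called it (-0.80, adjusted p = 0.00803).

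The family did not move as one. Trav14d-3-dv8, whose name records that it can also join the delta chain, held 37.2%, 34.0% and 27.8% of Trav counts in CD4 control, 25.3%, 30.8% and 27.8% in CD4 ThpokAD and 0.114%, 0% and 0.154% in CD8 control. Behind the CD8 values stand 5, 0 and 19 counts against 1896 to 3492 in the GP66 libraries, and the library with none allows a share of up to 0.0603% of its 4973 Trav counts, a limit for counting error only. No library of the GP33 sort came near the range of the GP66 sorts. Relative to all genes, its log2 fold change in the GP33 sort against the GP66 sort was -9.06 ± 0.51 (SE), with an adjusted p of 1.6e-05 by edgeR's quasi-likelihood test over all genes. Trav14d-3-dv8 passed the filter on low counts only through the GP66 libraries, where it was higher. Its call is therefore no separate support for a difference.

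Trav14n-3 took 22.5%, 19.6% and 28.5% of Trav counts in CD4 control, 11.2%, 11.3% and 20.1% in CD4 ThpokAD and 2.85%, 0.764% and 1.33% in CD8 control. All GP66 libraries exceeded all GP33 libraries, and 1 CD4 ThpokAD library exceeded the lowest CD4 control library. Between GP33 and GP66 sorts it changed by -4.54 ± 0.37 on the log2 scale (SE, edgeR adjusted p = 0.000114). Trav14-3 had 13.4%, 13.9% and 11.5% in CD4 control, 4.43%, 21.3% and 13.6% in CD4 ThpokAD and 3.17%, 4.60% and 5.75% in CD8 control. Here 1 CD4 ThpokAD library fell inside the CD8 control range. The log2 fold change of Trav14-3 between the sorts was -2.45 ± 0.54 (SE, edgeR adjusted p = 0.0201); the call was lost without CD8 control replicate 1 (adjusted p = 0.0708), without CD8 control replicate 2 (0.0764), and when the segments were scaled to the Trav total (0.0581).

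Trav14-1 went the other way. It held 17%, 9.61% and 3.87% of Trav counts in CD8 control, against 0.457%, 0.350% and 0.829% in CD4 control and 0.881%, 0.230% and 1.10% in CD4 ThpokAD. The lowest GP33 library was above the highest GP66 library, although the GP33 libraries differed among themselves more than the GP66 libraries did. The GP33 sort exceeded the GP66 sort in Trav14-1 by 2.88 ± 0.49 on the log2 scale (SE, edgeR adjusted p = 0.00642). Trav14-2 had 4.17%, 3.49% and 5.36% in CD4 control, 1.12%, 0.749% and 4.08% in CD4 ThpokAD and 9.31%, 2.01% and 0.883% in CD8 control, groups that overlapped, and it passed the test in none of the 4 comparisons.

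**Figure D1:**
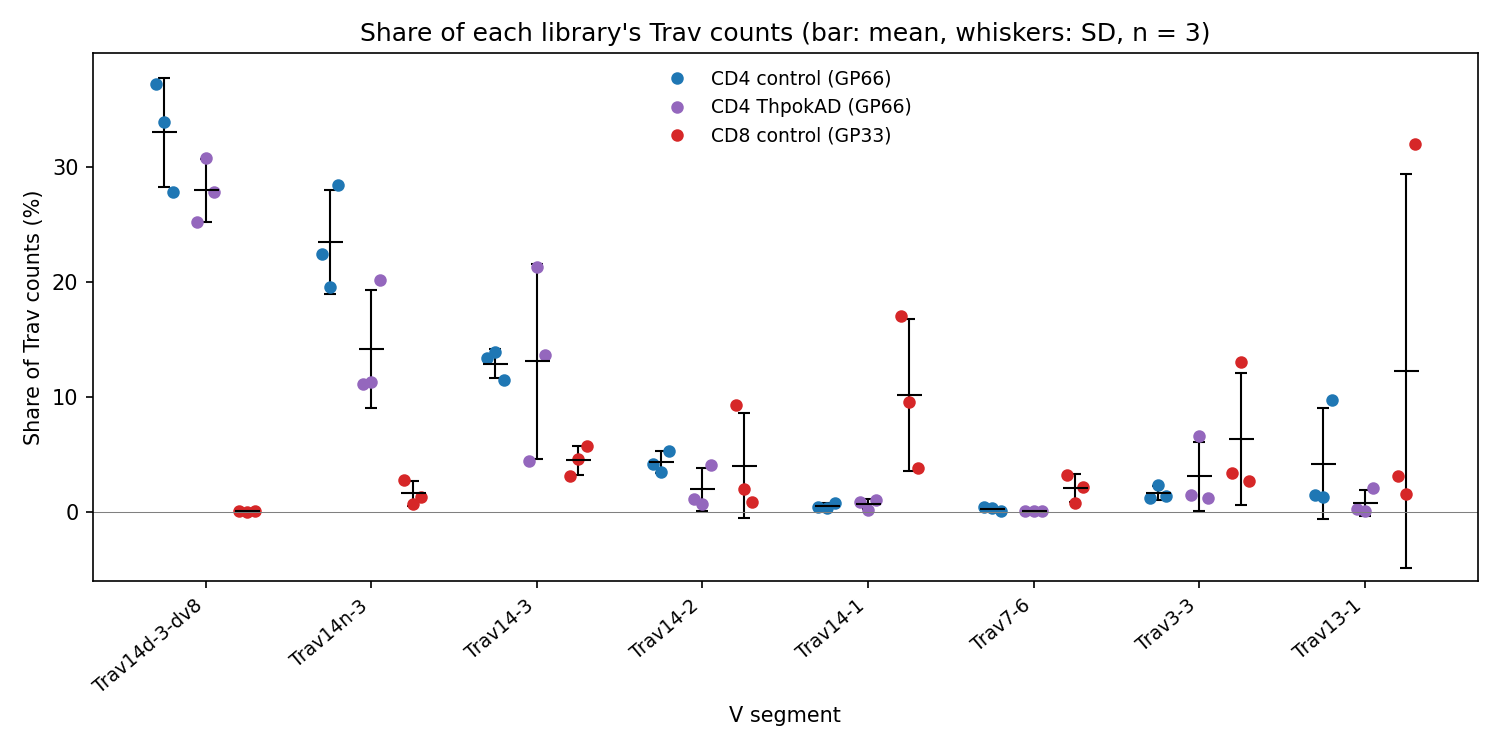
Share of each library's Trav counts (percent, linear axis) for the 5 Trav14 members and for Trav7-6, Trav3-3 and Trav13-1; points are libraries, coloured by group, horizontal bars are means and whiskers SDs of 3 libraries. Trav14d-3-dv8 lies between 25.3% and 37.2% in the GP66 libraries and at or below 0.154% in the GP33 libraries, and Trav13-1 reaches 32.0% in a single CD8 control library.

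Among the other alpha segments, Trav7-6 was the only one called. It held 0.421%, 0.379% and 0.0921% of Trav counts in CD4 control, 0.116%, 0.0967% and 0.117% in CD4 ThpokAD and 3.29%, 0.845% and 2.2% in CD8 control, with no overlap between the sorts. The fitted log2 fold change in the GP33 sort against the GP66 sort was 2.49 ± 0.59 (SE, edgeR adjusted p = 0.0276), and it was no longer called when CD8 control replicate 1 or 3, or any CD4 ThpokAD library, was left out (adjusted p up to 0.0986). Trav7-6 passed the filter on low counts only through the CD8 control libraries, where it was higher. Its calls are therefore no separate support for a difference. Trav3-3 reached a mean of at least 5% in CD8 control only, at 3.40%, 13.0% and 2.75%, against a median of 1.47% and a range of 1.22% to 6.60% over the 6 GP66 libraries, and was not called. Its levels overlapped, at 6.23, 31.4 and 8.36 CPM in CD8 control and 4.4 to 29.9 CPM in the GP66 libraries. Trav7 segments together held 12.6%, 19.3% and 11.2% in CD8 control and 2.10% to 9.51% in the GP66 libraries, and the 3 Trav16 segments held 6.91%, 9.49% and 7.72% against 0.359% to 2.60%. Neither family passed the threshold in the family fit. Shares of Trav counts are parts of a whole, so a lower Trav14 share raises the other shares even where levels do not change.

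Trav1, used by the MAIT cell receptor, held 1.25%, 0% and 1.11% of Trav counts in CD4 control, 2.72%, 0.133% and 0.206% in CD4 ThpokAD and 0%, 1.15% and 0.437% in CD8 control. These ranges overlap in all 3 groups. Trav11n, annotated as a pseudogene and the only Trav11 row with enough counts to be a member, held at most 0.447% in any library.

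Single libraries also stood out in segments that their group did not share. By a rule chosen after the values were seen (a share of at least 5% and at least 5 times that of the next library of the group), there were 7 such cases, 4 of them in CD4 ThpokAD, 2 in CD8 control and 1 in CD4 control. All 7 were Trav segments. The largest was Trav13-1 in CD8 control replicate 3, with 32.0% of Trav counts (exact 95% binomial interval 31.2% to 32.9%, counting error only), against 3.19% and 1.57% in the other CD8 control libraries. The same segment held 9.79% in CD4 control replicate 3, against 1.53% and 1.34% in that group. In CD4 ThpokAD, where the rule was not met, Trav13-1 was also highest in replicate 3, at 2.14% against 0.255% and 0.109%. In CD4 ThpokAD replicate 1, Trav17 held 12%, Trav3-1 6.48% and Trav7d-4 6.07%. Trav21-dv12 held 11.8% in CD4 ThpokAD replicate 2, against 0.464% and 0.191% in the other libraries of its group. Trav7n-4 held 8.71% in CD8 control replicate 2, against 0.745% and 0.456%. None of these segments passed the test in any of the 4 comparisons in the fit reported. In alternative fits, Trav13-1 was called with a term for replicate number, and Trav7n-4 without CD4 control replicate 2.

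Beta chain usage turned on the 3 members of Trbv13, known as V beta 8, and on Trbv31 and Trbv29, known as V beta 14 and V beta 7. The Trbv13 segments are shown over 140 bases near the 3′ end of the V exon, with capitals at the 35 positions where they differ, since the 3 moved in different directions although they are neighbours in the cluster. They are on the plus strand of chromosome 6 (GENCODE M21, mm10).
Trbv13-1, chr6:41116323-41116462: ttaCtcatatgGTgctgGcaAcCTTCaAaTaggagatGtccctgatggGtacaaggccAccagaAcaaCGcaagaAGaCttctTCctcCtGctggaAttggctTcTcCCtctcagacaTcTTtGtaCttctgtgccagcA
Trbv13-2, chr6:41121687-41121826: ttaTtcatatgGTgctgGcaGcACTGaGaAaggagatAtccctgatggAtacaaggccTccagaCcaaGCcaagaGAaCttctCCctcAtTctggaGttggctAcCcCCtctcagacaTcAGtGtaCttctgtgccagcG
Trbv13-3, chr6:41130440-41130579: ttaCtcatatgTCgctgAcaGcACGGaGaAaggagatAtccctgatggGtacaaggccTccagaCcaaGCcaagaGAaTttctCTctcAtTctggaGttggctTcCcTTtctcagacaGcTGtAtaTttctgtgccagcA
Over 290 bases, Trbv13-1 was 85.9% identical to Trbv13-3 and 88.6% identical to Trbv13-2. The ends of Trbv31, on the minus strand, and Trbv29, on the plus strand, follow because they had the largest shares that fell and rose outside the Trbv13 family; capitals mark the codon of the conserved cysteine where the joined, variable part of the chain begins.
Trbv31, chr6:41557691-41557810: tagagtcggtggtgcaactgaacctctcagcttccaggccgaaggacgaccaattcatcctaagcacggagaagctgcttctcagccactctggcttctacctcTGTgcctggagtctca
Trbv29, chr6:41271762-41271881: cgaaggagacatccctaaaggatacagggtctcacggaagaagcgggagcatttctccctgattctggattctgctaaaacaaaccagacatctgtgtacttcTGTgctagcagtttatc

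Trbv31 had the largest beta chain difference between the sorts among segments detected in every library. It held 32.3%, 20.3% and 23.6% of Trbv counts in CD4 control, 18.0%, 17.3% and 16.0% in CD4 ThpokAD and 1.78%, 0.708% and 0.683% in CD8 control. All 3 groups were separate, in that order. Its log2 fold change in the GP33 sort against the GP66 sort was -4.59 ± 0.32 (SE, edgeR adjusted p = 4.8e-05), whereas in CD4 ThpokAD against CD4 control it was -0.66 ± 0.28 and did not pass the threshold (adjusted p = 0.307).

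Trbv13-3 held 25.7%, 32.2% and 41.3% of Trbv counts in CD4 control, 27.4%, 25.6% and 27.7% in CD4 ThpokAD and 11.3%, 21.3% and 12% in CD8 control. It was the most counted beta segment in 5 of the 6 GP66 libraries, Trbv31 in the other one, and the same segments came first when counts were divided by exonic length. Its log2 fold change between the sorts was -1.25 ± 0.28 (SE, edgeR adjusted p = 0.0216) and was not called without CD8 control replicate 1 or 3 (adjusted p = 0.0743 and 0.0913). Trbv13-2 held 12.7%, 15.3% and 10.9% in CD4 control, 15%, 20.3% and 16.3% in CD4 ThpokAD and 6.30%, 4.39% and 2.72% in CD8 control. The difference between the sorts was -2.02 ± 0.26 on the log2 scale (SE, edgeR adjusted p = 0.00148), with all GP66 libraries above all GP33 libraries.

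Trbv13-1 moved against its neighbours, with 16.0%, 9.48% and 15.1% of Trbv counts in CD8 control, against 5.02%, 5.02% and 2.29% in CD4 control and 5.64%, 4.38% and 2.08% in CD4 ThpokAD. The sorts did not overlap. Trbv13-1 was higher in the GP33 sort by 1.48 ± 0.33 on the log2 scale (SE, edgeR adjusted p = 0.0219), lost without CD8 control replicate 1 or 3 (adjusted p = 0.0752 and 0.0895). Summed, the 3 Trbv13 segments held 43.4% to 54.5% of Trbv counts in the GP66 libraries and 29.9% to 35.2% in the GP33 libraries, a log2 fold change of -0.84 ± 0.14 (SE, edgeR adjusted p = 0.00598 in the family fit).

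Trbv29 held 15.5%, 14.9% and 18.5% of Trbv counts in CD8 control, 6.10%, 7.01% and 4.84% in CD4 control and 4.32%, 9.41% and 3.56% in CD4 ThpokAD. Its log2 fold change in the GP33 sort was 1.22 ± 0.29 (SE, edgeR adjusted p = 0.0268), a call that depended on CD4 control 1 and 3, CD4 ThpokAD 1 and each CD8 control library (adjusted p up to 0.107 when 1 of them was omitted). Every GP33 library was above every GP66 library. Trbv1, or V beta 2, held 5.60%, 3.12% and 9.01% in CD8 control and 0.155% to 1.97% (median 0.761%) in the 6 GP66 libraries. Trbv1 had a log2 fold change of 2.61 ± 0.48 (SE, edgeR adjusted p = 0.00975; 0.0551 without CD8 control replicate 3). Trbv16, or V beta 11, held 3.06%, 8.61% and 11.7% in CD8 control and 0.384% to 1.80% (median 1.03%) in the GP66 libraries. The groups were separate, with a log2 fold change of 2.63 ± 0.56 (SE, edgeR adjusted p = 0.0177; 0.0562 and 0.0832 without CD8 control replicates 2 and 3).

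Trbv19, or V beta 6, held 11.6%, 5.88% and 7.44% of Trbv counts in CD8 control and 2.23% to 5.91% (median 3.30%) in the GP66 libraries, so the sorts overlapped at 1 library. Its log2 fold change of 0.99 ± 0.25 (SE, edgeR adjusted p = 0.0356) was the smallest of those called, and it missed the threshold when CD8 control 1 or 3, CD4 ThpokAD 1 or 3, or CD4 control 1 or 2 was omitted (adjusted p up to 0.140). Trbv12-2, a V beta 5 segment, held 5.57% to 9.18% (median 7.59%) in the GP66 libraries and 3.83%, 2.41% and 3.20% in CD8 control. Its log2 fold change was -1.47 ± 0.20 (SE, edgeR adjusted p = 0.00214). Trbv14 held 5.74%, 5.55% and 6.73% in CD8 control and 0.519% to 7.75% (median 1.69%) in the GP66 libraries, and Trbv17 held 9.48%, 14.1% and 2.57% against 0.486% to 3.12% (median 1.41%). Neither was called.

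A pair of rare beta segments was counted in 1 sort only. Trbv23 had 123 counts in the 6 GP66 libraries and none in the 3 GP33 libraries. Its mean of 1.16 CPM in the GP66 sort was 33.0 times a floor of 3 counts over the GP33 libraries. That floor covers counting error only, and the GP66 libraries ranged from 0.117 to 2.61 CPM, so the ratio is no lower bound for the difference. Trbv23 was called lower in the GP33 sort, but not when any 1 of the 3 CD8 control libraries, CD4 control replicates 1 and 2 or CD4 ThpokAD replicates 1 and 2 was left out (edgeR adjusted p up to 0.0686). It passed the filter on low counts only through the GP66 libraries, where it was higher, so its call is no separate support for a difference. Trbv21 had 44 counts in the GP33 libraries (0.794, 0.775 and 0.222 CPM) and none in the GP66 libraries. Its mean of 0.597 CPM in the GP33 sort was 21.5 times a floor of 3 counts over the GP66 libraries, with the same limit. It was among the 16 members that the filter on low counts kept out of the test.

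**Figure D2:**
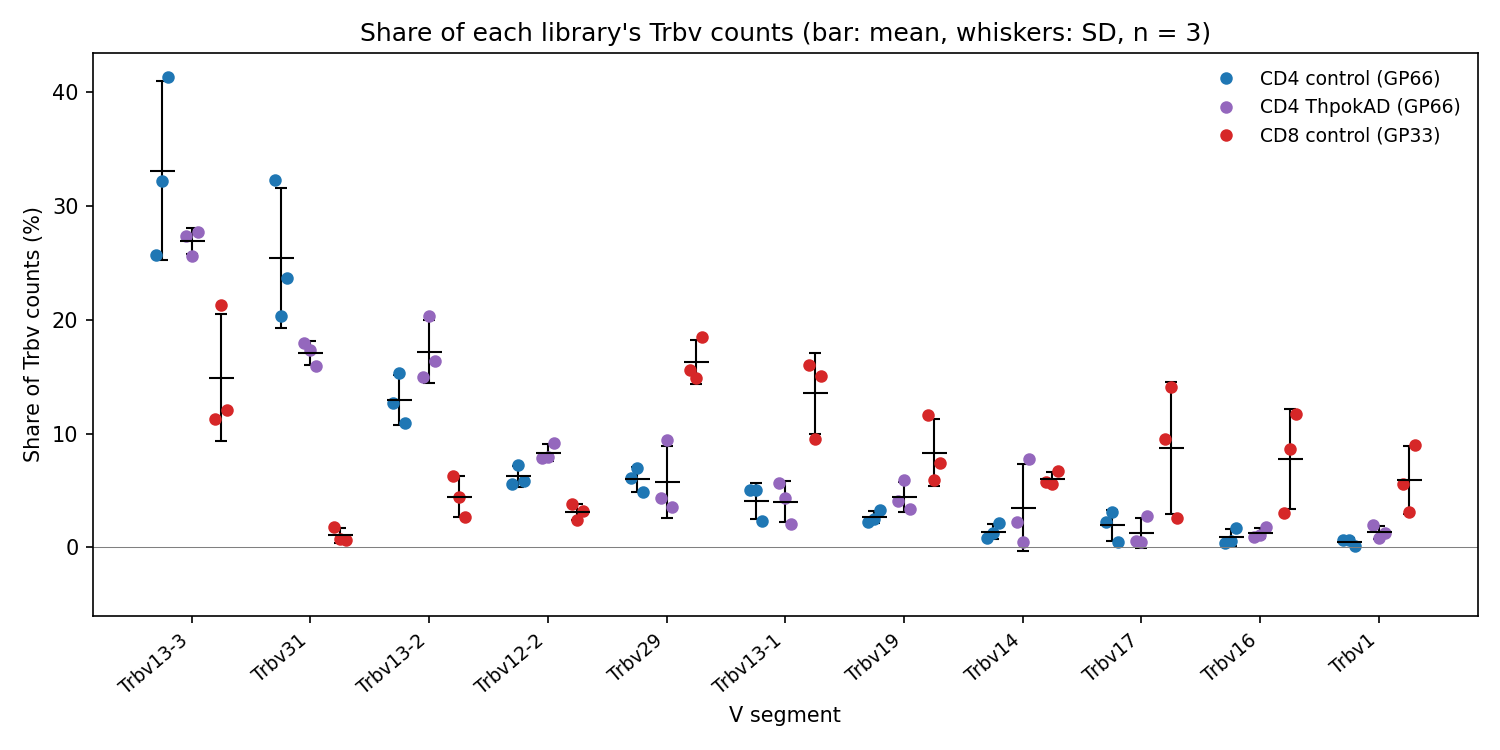
Share of each library's Trbv counts (percent, linear axis) for 11 beta segments; points are libraries, coloured by group, horizontal bars are means and whiskers SDs of 3 libraries. Trbv31 lies at 16.0% to 32.3% in the GP66 libraries and at 0.683% to 1.78% in the GP33 libraries, and Trbv29 and Trbv13-1 are higher in each GP33 library than in any GP66 library.

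Of the 93 members, 77 (56 Trav and 21 Trbv) passed the low-count filter and were tested with all 15738 genes. In the GP33 sort against the GP66 sort, with both CD4 groups averaged, 7 members were higher (Trav14-1, Trav7-6, Trbv1, Trbv13-1, Trbv16, Trbv19 and Trbv29) and 8 lower (Trav14d-3-dv8, Trav14n-3, Trav14-3, Trbv31, Trbv13-2, Trbv13-3, Trbv12-2 and Trbv23), while 4.98% of all genes tested were called higher and 6.16% lower (11.1% in either direction). The median log2 fold change of the tested members was 0.21, against 0.02 over all genes. When the segments were scaled to the Trav or Trbv total of each library, 13 were higher and 7 lower, and the median was 1.14. On that scale, as for shares, a fall of the most counted segments raises the values of the others. Of the 15 calls, 5 fell among the 56 Trav segments and 10 among the 21 Trbv segments. Trbv23 and Trav14d-3-dv8, counted among the 8 lower, passed the low-count filter only through the GP66 libraries. Trav7-6, counted among the 7 higher, passed it only through the CD8 control libraries. Under the alternatives run, 6 of the 15 were called in all of them: Trav14d-3-dv8, Trav14n-3, Trav14-1, Trbv31, Trbv13-2 and Trbv12-2.

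**Figure D3:**
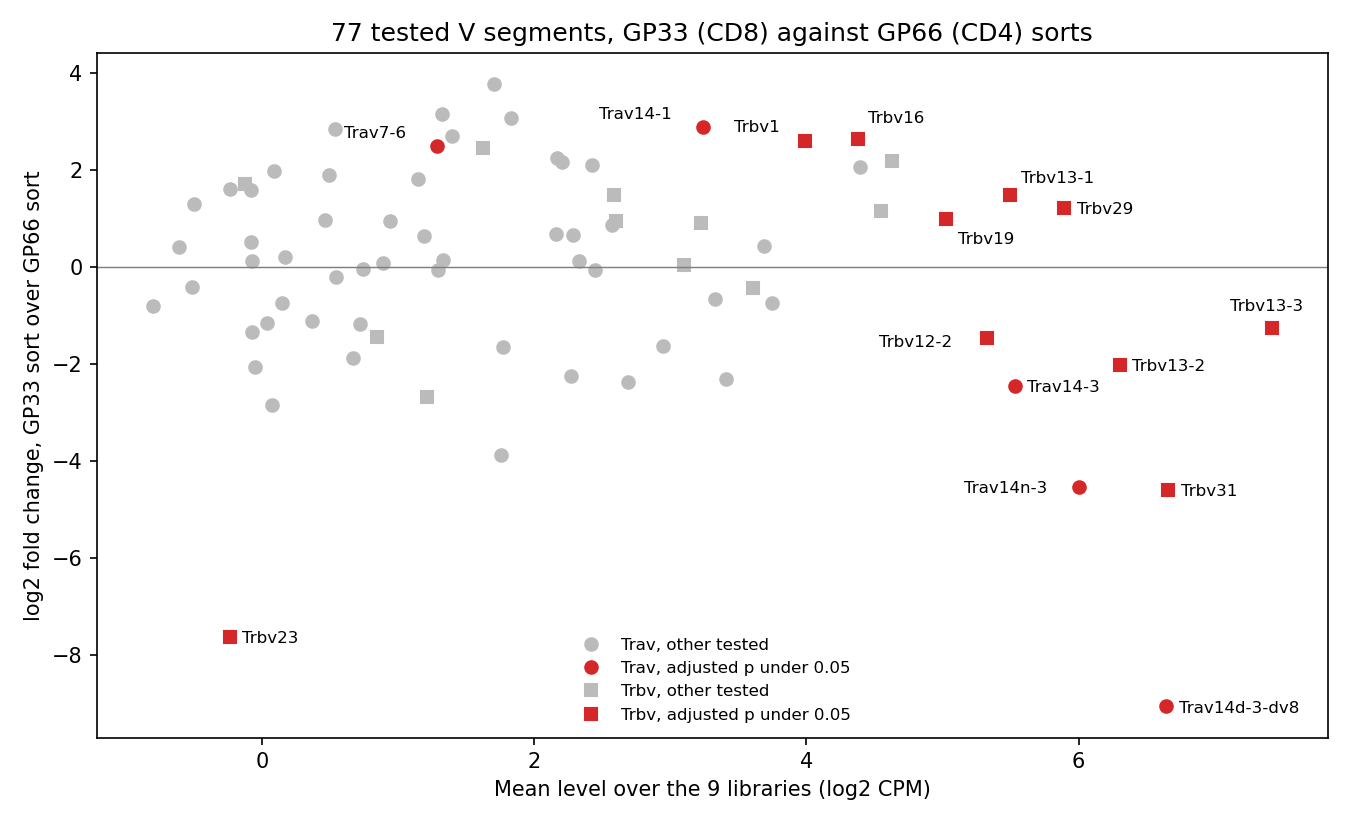
Fitted log2 fold change in the GP33 sort over the GP66 sort (vertical axis) against the mean level (log2 CPM, horizontal axis) for the 77 tested segments; circles are Trav, squares Trbv, and red symbols have an adjusted p under 0.05. Red symbols lie on both sides of the zero line, 7 above and 8 below it; the fitted value of Trbv23, with no count in the GP33 libraries, depends on the fit's prior and is no measure of size.

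The separate comparisons of the CD8 group with each CD4 group share the CD8 libraries with each other and with the contrast of sorts. CD8 control against CD4 control gave 4 members higher (Trav14-1, Trbv1, Trbv16 and Trbv19) and 8 lower (Trav14-3, Trav14d-3-dv8, Trav14n-3, Trbv12-2, Trbv13-2, Trbv13-3, Trbv23 and Trbv31), against 5.13% and 6.55% of all genes (11.7% together); without CD4 control replicate 1 or 2 there were 7 and 6 members called in place of 12. CD8 control against CD4 ThpokAD gave 2 higher (Trav14-1 and Trav7-6) and 6 lower (Trav14d-3-dv8, Trav14n-3, Trbv12-2, Trbv13-2, Trbv23 and Trbv31), against 1.91% and 4.63% of all genes (6.54% together); without CD4 ThpokAD replicate 3 or CD8 control replicate 1 there were 5. Under these omissions, calls over all genes were fewer too. Median log2 fold changes of the tested members were 0.47 and 0.17, against 0.01 over all genes in each comparison. Scaled to the Trav or Trbv total, 8 members were higher and 7 lower than in CD4 control, with a median of 1.45, and 4 were higher and 6 lower than in CD4 ThpokAD, with a median of 0.85. For Trav14d-3-dv8 the log2 fold change was -9.39 ± 0.53 against CD4 control and -8.73 ± 0.52 against CD4 ThpokAD (SE). Trbv23 and Trav14d-3-dv8, in both lists of lower members, passed the low-count filter only through the GP66 libraries. Trav7-6, higher against CD4 ThpokAD, passed it only through the CD8 control libraries.

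With the peptide, MHC molecule and sort held the same, CD4 ThpokAD against CD4 control, no member was called by edgeR's quasi-likelihood test, while 2.74% of all genes tested were called, 1.81% higher and 0.928% lower. At an unadjusted p under 0.05 there were 6 members: Trav14n-3, Trav7-6 and Trbv31 with lower and Trbv1, Trbv3 and Trbv5 with higher values in CD4 ThpokAD. The share of all genes at this threshold was not computed, so the 6 are not read as a result. The lowest adjusted p was that of Trav14n-3, 0.112, with a log2 fold change of -1.19 ± 0.33 (SE), and its levels were 116, 115 and 162 CPM in CD4 control and 48.1, 51.4 and 72.8 CPM in CD4 ThpokAD, with no overlap. On the scale of shares of Trav counts its groups did overlap, as given above. The count of calls was 1 with DESeq2's Wald test (Trav14n-3, adjusted p = 0.00704) and 2 when only the 6 libraries compared were fitted (Trav14n-3, adjusted p = 0.038, and Trbv31, 0.0468), and 1 without CD8 control replicate 2 (Trav14n-3, 0.0363). Over all genes, DESeq2 called 849 higher and 607 lower of 16232, and the fit of the 6 libraries 357 and 246 of 14675. The median log2 fold change of the tested members was 0.18, against 0.00 over all genes, and 0.42 when scaled to the Trav or Trbv total, where again no member was called.

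The receptor genes without V choice differed too. Summed Trav counts were 516, 587 and 568 CPM in CD4 control, 430, 452 and 361 CPM in CD4 ThpokAD and 183, 240 and 304 CPM in CD8 control. The 3 groups were in separate ranges. Trac, the alpha constant gene, was at 1448, 1651 and 1605 CPM in CD4 control, 1140, 1225 and 1110 CPM in CD4 ThpokAD and 667, 785 and 1059 CPM in CD8 control, and fell by 0.91 on the log2 scale from CD4 control to CD8 control (SE 0.16, edgeR adjusted p = 0.00686). Trav counts per Trac count were 0.355 to 0.357 in CD4 control, 0.325 to 0.377 in CD4 ThpokAD and 0.275 to 0.307 in CD8 control. Summed Trbv counts overlapped between the GP66 groups, at 647 to 780 and 663 to 695 CPM, and were 536 to 614 CPM in CD8 control.

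Of the 3 constant genes, Trac and Trbc2 were lower and none higher in the GP33 sort than in the GP66 sort. Of the 4 signalling chains of the receptor complex, Cd3d was higher, with a log2 fold change of 0.54 ± 0.11 (SE, edgeR adjusted p = 0.0142), and Cd3e, Cd3g and Cd247 did not pass the threshold. None of these 7 genes was called in CD4 ThpokAD against CD4 control. The split between the beta constant genes differed in level: Trbc1 made up 36.7%, 36.1% and 40.7% of Trbc1 plus Trbc2 counts in CD4 control, 48.3%, 46.2% and 50.2% in CD4 ThpokAD and 47.9%, 49.6% and 46.5% in CD8 control. The CD4 control libraries were below all others. The fitted difference of Trbc1 itself in CD4 ThpokAD against CD4 control was 0.43 ± 0.10 on the log2 scale (SE, adjusted p = 0.0673).

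Usage was spread over the fewest segments in CD4 control and over the most in CD8 control. The effective number of segments is the number of equally used segments that would give the same chance of drawing the same segment in both of a pair of random counts (the inverse Simpson index). For Trav it was 4.73, 5.61 and 5.39 in CD4 control, 8.91, 5.78 and 6.92 in CD4 ThpokAD and 16.5, 17.9 and 8.14 in CD8 control. The CD4 groups were in separate ranges, and 1 CD4 ThpokAD library lay above the lowest CD8 control library, CD8 control replicate 3, in which Trav13-1 alone held 32.0%. For Trbv it was 5.06, 5.45 and 4.05 in CD4 control, 6.81, 6.34 and 6.73 in CD4 ThpokAD and 10, 8.66 and 9.25 in CD8 control, with no overlap between any 2 groups. No test was run on these indices, and the Trav values leave out copies whose usage cannot be read. The smallest number of segments that together held 50% of the counts was 2 in each CD4 control library for both chains, 2 to 4 (Trav) and 3 (Trbv) in CD4 ThpokAD, and 5 to 7 (Trav) and 3 to 4 (Trbv) in CD8 control.

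**Figure D4:**
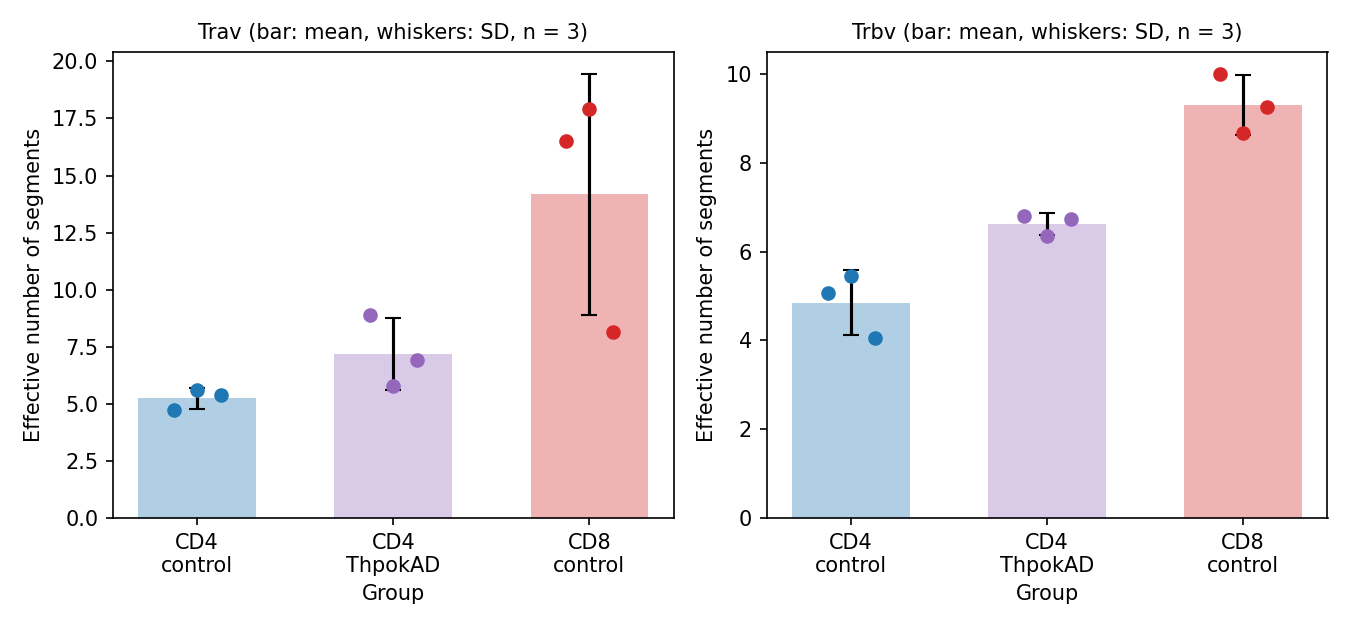
Effective number of V segments (inverse Simpson index, axis from 0) for Trav and Trbv by group; points are libraries, bars are means and whiskers SDs of 3 libraries. The Trbv values of the 3 groups do not overlap (4.05 to 5.45, 6.34 to 6.81 and 8.66 to 10), while CD8 control replicate 3 lies at 8.14 for Trav, below the highest CD4 ThpokAD library.

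On average, libraries of a group resembled each other more in beta than in alpha usage. Overlap, the sum over segments of the smaller of a pair of libraries' shares, averaged 83.1%, 85.0% and 76.5% for Trbv within CD4 control, CD4 ThpokAD and CD8 control, and 79.3%, 60.3% and 46.4% for Trav. In CD4 control the pairs ranged from 79.7% to 85.8% for Trbv and from 75.2% to 83.5% for Trav, so the chains were not separate there. The measure runs over 24 Trbv and 69 Trav members, and this difference in number was not corrected for. Between CD4 control and CD4 ThpokAD libraries it averaged 80.4% for Trbv (range 74.9% to 86.6%) and 68.1% for Trav (56.5% to 80.4%). Between CD8 control libraries and those of CD4 control or CD4 ThpokAD it averaged 44.5% and 50.3% for Trbv and 26.3% and 27.6% for Trav. For Trav, libraries of CD8 control thus shared less with each other, on average, than CD4 control libraries did with CD4 ThpokAD libraries.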

How the data were processed

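The authors deposited whole-number counts per gene symbol for 9 libraries; per the labels' protocols, RNA was made into libraries with the SMARTer Ultra Low Input and Nextera XT kits, which do not mark strand, and read as 126-base pairs. Tools listed in the submitters' processing notes, with no roles, are STAR, HTSeq, Trimmomatic, DESeq2 and bcl2fastq 2.17, and the build is mm10. Not given in the sources used here are the annotation, the strand setting and the treatment of reads that match several copies, which can empty near-identical Trav rows.

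Shares are each row's count over the Trav or Trbv members' total of its library, not divided by length (exonic lengths 328 to 595 bases for Trav and 335 to 566 for Trbv). Differences were tested with edgeR 4.0.16 (R 4.3.3): filterByExpr by group (minimum count 10, minimum total 15), TMM, 1 coefficient per group, quasi-likelihood test, all 9 libraries, Benjamini-Hochberg over 15738 genes in each of 4 comparisons, called at an adjusted p under 0.05. Comparisons share libraries. SEs are the log2 fold change over the square root of F. On simulated counts, with 200 genes changed 4-fold in CD4 ThpokAD, 71.5% were recovered in CD4 ThpokAD against CD4 control (15010 genes). With the change in CD8 control, 73.5%, 76% and 81.5% were recovered against CD4 control, CD4 ThpokAD and both (14947 genes). The changed genes were drawn only from those above a minimum mean level. Many V segments lie below it, so these rates do not give the chance of calling a changed V segment. Intervals are exact binomial (95%) and floors are 3 counts; both cover counting error alone, as amplified reads carry no molecular identifiers and are not separate molecules. Each replicate was counted as a library of its own, as labelled. Between replicates of a group, chi-square per degree of freedom was 25.2 to 181 over V rows. This value takes reads as separate molecules, so it cannot tell technical repeats from separate samples, and it does not show separate animals.

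The members, gene lists and the naming rule were chosen with earlier results of these data known. Named segments have a mean share of at least 5% in a group, are called in a comparison, lead a library, or belong to Trav14, Trav11, Trav1, Trbv13, Trbv29, Trbv1 or Trbv31. Alternatives were other scaling, filters, DESeq2 1.42.0, only the libraries compared, a replicate block and omission of each library. A deposited table of scaled values was not used.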

Additional observations from a re-analysis of the deposited data

How the results depend on the processing

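The number of members called depended on the test. In CD4 ThpokAD against CD4 control it was 0 in the fit reported, 1 with DESeq2 (Trav14n-3), 2 with only the libraries compared (Trav14n-3 and Trbv31), 1 with bias-adjusted deviances in edgeR (Trav14n-3) and 0 to 1 over the omissions of 1 library. In CD8 control against CD4 control it was 12, with 9 higher and 9 lower under DESeq2, 21 under bias-adjusted deviances and 6 to 13 over the omissions. In CD8 control against CD4 ThpokAD it was 8, with 21 under DESeq2, 17 under bias-adjusted deviances and 5 to 8 over the omissions. In the GP33 against the GP66 sort it was 15, with 25 under DESeq2, 26 under bias-adjusted deviances and 7 to 15 over the omissions. Both alternatives also called more genes over the whole table. In CD4 ThpokAD against CD4 control, DESeq2 called 849 genes higher and 607 lower of 16232. Its calls were 1456 and 1782 of 16689 in CD8 control against CD4 control, and 850 and 1502 against CD4 ThpokAD. Between the sorts they were 1341 and 1882 of 16232, and 1164 and 1335 of 15738 with bias-adjusted deviances. In comparisons with CD8 control, each omission also gave fewer calls over all genes. Bias-adjusted deviances and family sums were added after the data had been seen. Fewer libraries leave fewer degrees of freedom; for the other differences the cause was not tested. No call changed sign in any setting. The uncalled difference of Trav14-3 between CD4 ThpokAD and CD4 control (-0.39) was 0.0211 when scaled to the Trav total, and -1.08 to 0.00438 over the omissions, the latter without CD4 ThpokAD replicate 1. Restricting the fit to the libraries compared was not possible for the contrast of sorts, which uses all 9.

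Over all genes tested, libraries with the same replicate number did not deviate together (correlations of deviations -0.045 to 0.062), and the numbers were not taken as pairs. The correlation was not computed for V segments alone. Trav13-1 held its highest share of each group in replicate 3, at 9.79%, 2.14% and 32.0% in CD4 control, CD4 ThpokAD and CD8 control. Whether libraries with the same number share an origin was not tested. With the replicate block the calls were 1 (Trav13-1, lower in CD4 ThpokAD), 10, 7 and 13 in the 4 comparisons, in the order above.

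By the Shannon index in place of the inverse Simpson index, the effective number was 9.98, 13.1 and 23.9 for Trav and 7.18, 9.30 and 11.7 for Trbv, giving CD4 control first, then CD4 ThpokAD, then CD8 control; with segments summed by family it was 1.79, 2.96 and 7.24 for Trav and 3.04, 3.59 and 5.84 for Trbv. Counts per exonic length gave 6.12 for Trbv in CD4 ThpokAD. The order of the group means was the same in each of these. Shares rest on totals of 4384 or more counts per chain and library. The counting error of a share depends on the segment's own count, which was low for some members, such as Trbv21 with 44 counts over all libraries.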

Other observations

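The receptors of a pair of transgenic mouse lines often used to study these epitopes give a point of reference. As background, the SMARTA receptor, which recognises the class II epitope, uses V alpha 2 with V beta 8.3 (Trbv13-1), and the P14 receptor, which recognises GP33, uses V alpha 2 with V beta 8.1 (Trbv13-3). Between the sorts measured here, Trbv13-1 held 13.5% ± 3.54 (SD, n = 3) of Trbv counts in the GP33 sort and 4.07% ± 1.52 (SD, n = 6) in the GP66 sorts, while Trbv13-3 held 14.9% ± 5.58 (SD, n = 3) and 30.0% ± 6.06 (SD, n = 6). Within the GP33 sort the means of both segments lay within an SD of each other, and both calls between the sorts were lost without CD8 control replicate 1 or 3. V alpha 2 segments, in turn, were frequent in the GP66 sorts, and in the GP33 sort the most counted of them was Trav14-1 in replicates 1 and 2 and Trav14-3 in replicate 3.

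Members annotated as pseudogenes held 0.146% to 1.41% of the V counts of a library. Trbv24, with 370 counts over the 9 libraries, was the most counted of them.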
